A study of Arabidopsis thaliana with 10 samples.

Results

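The genes described here encode thioredoxins, their reductases, thioredoxin-dependent peroxiredoxins and other proteins annotated with a thioredoxin fold in *Arabidopsis thaliana*. They are the probe sets of the thioredoxin block in the study's list of redox-related genes. The study took that list from probe sets that had passed its detection filter on these arrays, so detection bore on the choice, while the difference between groups did not enter the rule used here. The block held 59 of the 22746 gene probe sets on the array, and these stand for 58 distinct genes or gene pairs. The gene TDX has 2 probe sets, and 2 other probe sets match a pair of near-identical genes each (NTRB with NTRA, and TPX2 with AT1G60740), whose signals cannot be told apart. Of the 59, 55 were bright enough to be among the 12453 probe sets compared, and 4 were not. The study drew attention to thioredoxin-related genes on these same arrays, so the counts below are not independent evidence of a direction.

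Thioredoxins are small proteins that reduce disulfide bonds in other proteins through a pair of cysteines. In the plastid they are reduced by ferredoxin-thioredoxin reductase, which takes its electrons from the photosynthetic electron transport chain, and in the cytosol and mitochondrion by NADPH-dependent thioredoxin reductases. Their targets include enzymes of carbon fixation that are switched on in the light and peroxiredoxins, which remove peroxides.

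Transcripts were measured on 10 Affymetrix ATH1 arrays, each with total RNA from leaves of 30-day-old soil-grown plants kept under short days and pooled from several plants. Of these, 3 came from the *oxt6* mutant, 2 each from complemented lines 5 and 6, and 3 from the wild-type, all in the Columbia background. The *oxt6* plants carry a T-DNA in the first exon of AT1G30460 and lack both proteins of that gene, the polyadenylation factor subunit AtCPSF30 and a larger related protein. Lines 5 and 6 are independent *oxt6* transformants that still carry the mutation and have regained a genomic clone for the smaller protein only, so they are not wild-type plants. The labels call the arrays biological replicates, and p-values measure the spread between these arrays. A probe set averages all the cells of a leaf, and fewer cells of a type and less RNA per cell cannot be told apart.

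Median intensities lay between 40.9 and 60.5 over the 10 arrays. The probe set for AT1G30460 read 27.1, 54.7 and 38.1 in *oxt6*, 16.0 to 18.7 in complemented plants and 39.2, 38.7 and 71.2 in the wild-type, so that *oxt6* and wild-type values overlapped. By the study's account this probe set reads only the larger RNA of the gene, which the complementing clone does not cover and which *oxt6* lacks. The *oxt6* readings thus did not show the absence that the label implies. Each lay below the median of its array, as did wild-type replicates 1 and 2 (medians 50.8 and 49.0), and the probe set was too dim to be compared. So dim a probe set cannot settle the labels of the *oxt6* arrays, which it does not bear out. The study's RNA blots found neither mRNA of the gene in *oxt6*. The reason for the readings was not tested, and *oxt6* below means the libraries labelled *oxt6*. The leaf marker LHCB4.1, a light-harvesting protein, read from 925.8 to 9018.1, whereas 12 of 13 markers of root, flower and seed stayed under 60 on every array. The difference between 3′ and 5′ probe sets of control genes (actin, GAPDH and ubiquitin, mean log2) averaged 2.24 in *oxt6* (1.09, 2.88 and 2.75), 0.04 ± 0.07 in complemented plants (SD, n = 4) and 2.19 ± 0.18 in the wild-type (SD, n = 3). It thus set all complemented arrays apart from the others, and *oxt6* replicate 1 apart from *oxt6* replicates 2 and 3. The part of this signal in the results below was not tested beyond a fit with this signal as a covariate, and for the complemented group as a whole the signal and the genotype cannot be told apart. A second whole-array choice also mattered, since scaling all arrays to a common median moved the median log2 difference over all probe sets to 0.16 from -0.04 for *oxt6* against complemented plants, and to -0.09 from 0.06 for complemented plants against the wild-type.

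In *oxt6* against the wild-type, 18 of the 55 thioredoxin probe sets were higher and 3 lower at an adjusted p under 0.05 in limma. These shares, 32.7% higher and 5.45% lower, compare with 16.5% higher and 12.4% lower among all 12453 probe sets, where 28.9% changed. The median log2 difference was 0.35 for the thioredoxin probe sets and -0.04 for all. With quantile normalization the split was 18 higher and 7 lower. Against the complemented plants, which were compared with the same 3 *oxt6* arrays, 22 were higher in *oxt6* (40.0%) and 23 lower (41.8%), beside 32.8% higher and 37.6% lower among all probe sets (70.4% changed). The complemented plants in turn were higher than the wild-type at 29 (52.7%) and lower at 12 (21.8%), beside 38.7% and 34.1% over all probe sets (72.8% changed). Relative to the median of all probe sets, the thioredoxin median was 0.39 for *oxt6* against the wild-type, -0.17 for *oxt6* against complemented plants and 0.37 for complemented plants against the wild-type. No called member changed sign under that scaling or under quantile normalization. Counted by arrays alone, *oxt6* lay wholly above the wild-type at 20 members and wholly below at 8 (20.5% each way over all probe sets), above complemented plants at 20 (31.7%) and below them at 23 (37.6%), while complemented arrays lay above the wild-type ones at 30 (39.4%) and below at 12 (35.6%). When the 3′/5′ signal was a covariate, the 45 members that had changed against complemented plants became 18, and the 41 of complemented against wild-type plants also became 18.

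**Figure D1:**
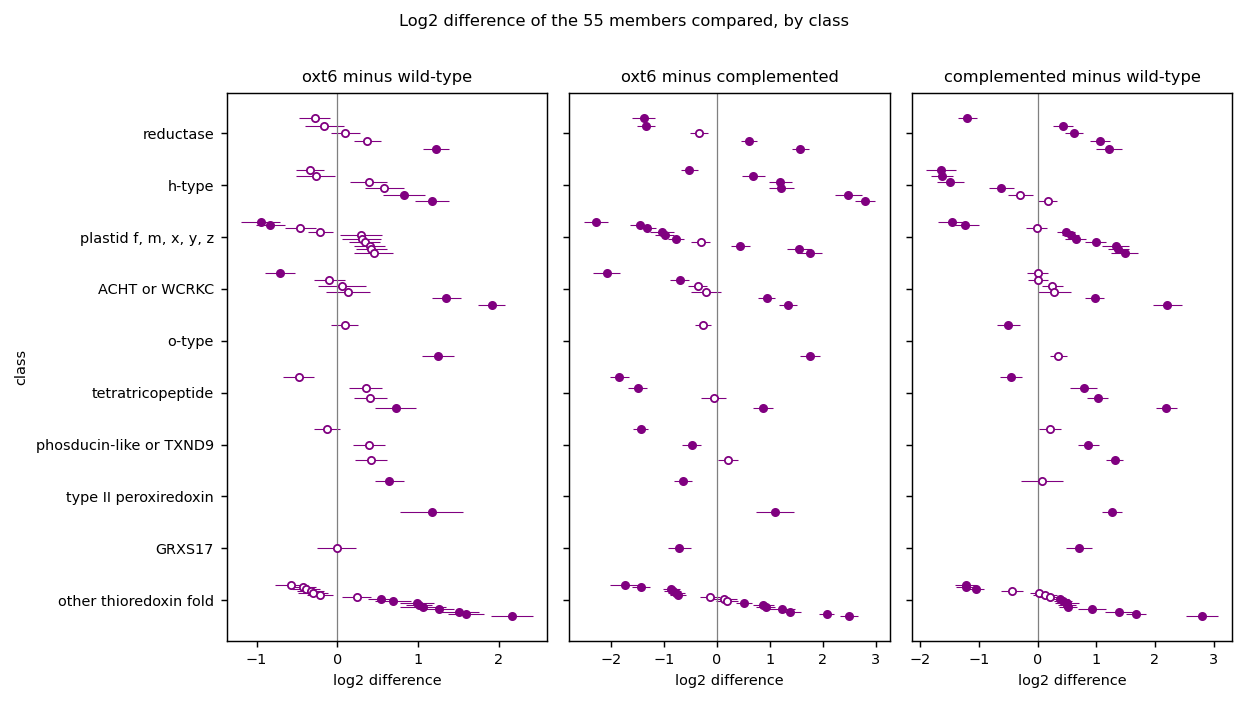
Log2 difference (x axis) of each of the 55 thioredoxin probe sets compared, by class (y axis), for *oxt6* minus wild-type, *oxt6* minus complemented and complemented minus wild-type. Bars are standard errors, filled points have an adjusted p under 0.05 in limma, and the first 2 panels share the *oxt6* arrays. In the fit shown, no plastid f, m, x, y or z thioredoxin passed above the wild-type in *oxt6*. With array weights or without *oxt6* replicate 1, 3 did, and 1 did with quantile normalization or the 3′/5′ signal as a covariate. Of 6 h-type thioredoxins, 5 were higher in *oxt6* than in complemented plants (32.8% of all probe sets were).

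Among the reductases, which feed electrons into the system, the catalytic subunit of ferredoxin-thioredoxin reductase (AT2G04700) was the only one of 5 that rose in *oxt6* against both groups (9.42% of all probe sets did). Its intensities were 1813.6, 2207.8 and 2063.0 in *oxt6*, 1321.1, 1405.6, 1292.8 and 1318.8 in complemented plants, and 924.1, 940.4 and 755.8 in the wild-type. Every *oxt6* array lay above every complemented array, and every complemented array above every wild-type array. The log2 difference was 1.22 ± 0.16 (SE) from the wild-type (adjusted p = 0.000125), 0.60 ± 0.15 from complemented plants (adjusted p = 0.00304), and 0.62 ± 0.15 between complemented and wild-type plants (adjusted p = 0.00237). The difference from complemented plants was 0.36 with the 3′/5′ signal as a covariate and no longer passed.

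The variable subunits that pair with this catalytic subunit differed from it and from each other. FTRA2 read 3222.7, 3150.6 and 2773.9 in *oxt6*, against 1173.5, 1141.4, 927.2 and 875.5 in complemented plants and 2213.2, 2322.7 and 2532.1 in the wild-type. It was higher in *oxt6* than in complemented plants (1.57 ± 0.16, adjusted p = 2.51e-06) and lower in complemented than in wild-type plants (-1.20 ± 0.16, adjusted p = 1.93e-05). Its *oxt6* arrays all lay above the wild-type ones, yet the difference of 0.37 did not pass (adjusted p = 0.122). FTRA1 read 208.3, 242.8 and 175.5 in *oxt6*, 236.3, 232.9, 307.1 and 275.7 in complemented plants, and 194.0, 202.4 and 183.6 in the wild-type. It passed only between complemented and wild-type plants (0.43 ± 0.17, adjusted p = 0.0308), and that call was lost in 12 of 24 alternatives, with adjusted p from 0.000937 to 0.39, among them 5 of the 10 that leave out 1 array (each wild-type replicate and both arrays of line 6). Over those 10 it was 0.36 to 0.49 on the log2 scale.

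NTRC, the plastid reductase that carries its own thioredoxin domain and uses NADPH, read 83.8, 60.5 and 67.9 in *oxt6*, 149.1, 169.0, 209.7 and 193.0 in complemented plants, and 79.2, 78.3 and 100.4 in the wild-type. The probe set for the NADPH-dependent reductases NTRB and NTRA read 115.7, 57.6 and 75.8 in *oxt6*, 187.4, 175.6, 252.9 and 227.3 in complemented plants, and 83.8, 104.2 and 81.2 in the wild-type. In both, *oxt6* and wild-type arrays overlapped while all 4 complemented arrays were above them. Against complemented plants NTRC was lower in *oxt6* by a log2 difference of -1.34 ± 0.17 (adjusted p = 1.75e-05) and NTRB/NTRA by -1.38 ± 0.22 (adjusted p = 0.000102). Both calls were lost with the 3′/5′ signal as a covariate (-0.89 and -0.26). Of the donors, then, 1 of 3 ferredoxin-dependent subunits and neither NADPH-dependent probe set exceeded the wild-type in *oxt6* at the threshold, beside 16.5% of all probe sets. So few probe sets cannot set the kinds of donor apart by count.

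**Figure D2:**
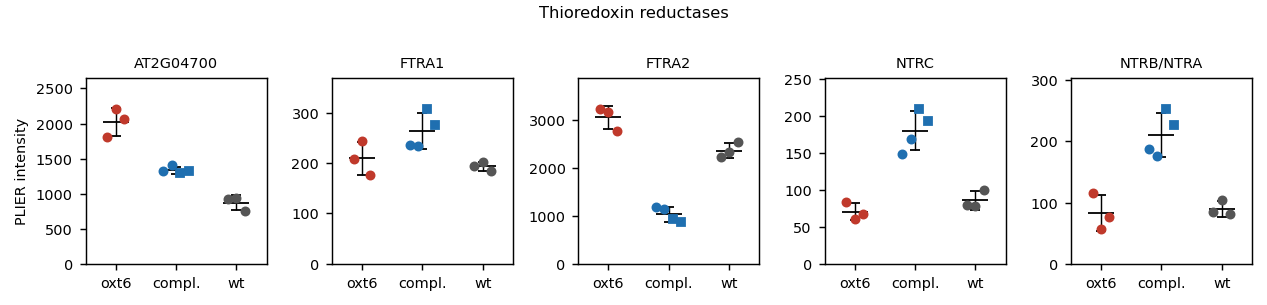
PLIER intensity (y axis) of the 5 reductase probe sets in *oxt6*, complemented (compl.) and wild-type (wt) plants. Points are arrays, with line 5 as circles and line 6 as squares among the complemented plants, and the bar and whiskers are the mean and SD. AT2G04700 was highest in *oxt6*, FTRA2 was lowest in complemented plants, and NTRC and NTRB/NTRA were highest in complemented plants.

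The h-type thioredoxins of the cytosol and membranes had the highest median log2 difference of any class between *oxt6* and complemented plants, 1.21, with 5 of 6 higher in *oxt6* and 1 lower, beside 32.8% and 37.6% of all probe sets. Against the wild-type 2 of 6 were higher (median 0.48), beside 16.5% of all probe sets. ATTRX4 read 840.7, 1163.6 and 1074.7 in *oxt6*, 156.3, 189.4, 123.3 and 122.3 in complemented plants, and 447.4, 407.3 and 503.7 in the wild-type. The groups did not overlap, with complemented plants lowest, and *oxt6* was 1.17 ± 0.21 above the wild-type (adjusted p = 0.000991) and 2.80 ± 0.19 above complemented plants (adjusted p = 1.63e-07), the largest rise of any member in that comparison. TRX1 read 115.3, 215.9 and 190.8 in *oxt6*, 28.0, 33.2, 34.0 and 23.5 in complemented plants, and 79.9, 79.6 and 133.0 in the wild-type. Its difference of 2.48 ± 0.25 from complemented plants passed (adjusted p = 2.14e-06), and all 10 arrays but the pair formed by *oxt6* replicate 1 and wild-type replicate 3 kept the order *oxt6*, wild-type, complemented. The rise of TRX1 over the wild-type, 0.82 ± 0.26 (adjusted p = 0.0315), was lost without wild-type replicate 1 or 2 or *oxt6* replicate 2 or 3, where adjusted p was 0.105 to 0.116, and over all its alternatives adjusted p ran from 3.32e-05 to 0.232.

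TRX5 did not pass against the wild-type in *oxt6* (-0.27, adjusted p = 0.439). It read 3434.8, 4401.5 and 3797.3 in *oxt6*, 2307.3, 2044.5, 1437.5 and 1105.6 in complemented plants, and 4872.4, 4997.8 and 4136.6 in the wild-type. Complemented plants were lowest on every array, with a log2 difference of -1.49 ± 0.23 from the wild-type (adjusted p = 6.18e-05), while *oxt6* was 1.22 ± 0.23 above them (adjusted p = 0.000337). Of the others, TH9 and TRX3 were higher in *oxt6* than in complemented plants by 1.20 and 0.69, and TRX2 was lower by a log2 difference of -0.52. None of these 3 passed against the wild-type, with log2 differences of 0.58, 0.39 and -0.34. No h-type thioredoxin was higher in complemented plants than in the wild-type, and TRX1, ATTRX4, TRX5 and TH9 were lower (-1.65, -1.63, -1.49 and -0.62). Over all probe sets 38.7% were higher and 34.1% lower in complemented than in wild-type plants. With the 3′/5′ signal as a covariate TRX1 did not pass there (-0.55), and TRX5 passed neither there (-1.16) nor against complemented plants (0.88).

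The plastid f, m, x, y and z thioredoxins numbered 10. None exceeded the wild-type in *oxt6* and 2 were below it, beside 16.5% and 12.4% of all probe sets, and against complemented plants 3 were higher and 6 lower (median -0.88), beside 32.8% and 37.6%. The count of 0 above the wild-type was 3 with array weights or without *oxt6* replicate 1 (TRX z, TY1 and ty2), and 1 with quantile normalization (TRX z) or with the 3′/5′ signal as a covariate (TRX-M4). THX, the x-type thioredoxin, which is known to reduce 2-Cys peroxiredoxin, read 138.2, 104.5 and 64.5 in *oxt6*, 412.8, 443.8, 559.7 and 513.7 in complemented plants, and 167.0, 197.4 and 207.8 in the wild-type. It was lowest on all 3 *oxt6* arrays, with a log2 difference of -0.95 ± 0.24 from the wild-type (adjusted p = 0.0103) and -2.28 ± 0.23 from complemented plants (adjusted p = 2.3e-06), the largest fall of any member in either comparison. ATHM2, an m-type thioredoxin, read 885.1, 846.2 and 714.5 in *oxt6*, 1764.9, 2172.8, 2057.7 and 2064.7 in complemented plants, and 1247.4, 1412.1 and 1696.9 in the wild-type. Its groups were in the same order without overlap, and *oxt6* was lower than the wild-type by -0.83 ± 0.18 on the log2 scale (adjusted p = 0.0033) and lower than complemented plants by -1.31 ± 0.16 (adjusted p = 1.33e-05). That ATHM2 was higher in complemented than in wild-type plants (0.48, adjusted p = 0.0176) held less well, being lost in 7 of 24 alternatives, among them those without wild-type replicate 1 (adjusted p = 0.0956) or 2 (adjusted p = 0.0528), with adjusted p from 7.55e-05 to 0.456 over all of them.

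Isoforms of a single plastid type went apart. TRXF1 and TRXF2 are f-type thioredoxins, known as activators of carbon fixation enzymes in the light. TRXF1 was higher in *oxt6* than in complemented plants by 1.55 and lower in complemented plants than in the wild-type (-1.24), whereas TRXF2 was lower in *oxt6* than in complemented plants (-0.98) and higher in complemented plants than in the wild-type (1.37). Neither passed in *oxt6* against the wild-type (0.30 and 0.40). The y-type pair, TY1 and ty2, was higher in *oxt6* than in complemented plants, by 1.75 and 0.44, and TY1 was lower in complemented plants than in the wild-type (-1.46). The other m-type members, THM1, TRX-M4 and ATHM3, were lower in *oxt6* than in complemented plants (-1.45, -1.03 and -0.77) and higher in complemented plants than in the wild-type (0.99, 1.48 and 0.56), with log2 differences from the wild-type in *oxt6* of -0.46, 0.45 and -0.21 that did not pass. TRX z, a component of the plastid transcription machinery, passed only in complemented against wild-type plants (0.65).

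The atypical plastid thioredoxins were divided. Of 6 members, 2 rose and 1 fell in *oxt6* against both groups, beside 9.42% and 5.24% of all probe sets. WCRKC2, named for the residues of its active site, read 459.5, 601.8 and 596.0 in *oxt6*, 260.2, 303.6, 292.8 and 288.0 in complemented plants, and 157.2, 144.8 and 135.0 in the wild-type. Its groups formed 3 separate levels, with *oxt6* 1.91 ± 0.17 above the wild-type (adjusted p = 6.98e-06), which was the smallest adjusted p of any member in that comparison, and 0.94 ± 0.16 above complemented plants (adjusted p = 0.00014). With the 3′/5′ signal as a covariate the difference from complemented plants was 0.50 and did not pass. WCRKC1 read 1383.8, 1521.4 and 1371.8 in *oxt6*, 619.3, 653.2, 483.3 and 499.4 in complemented plants, and 601.1, 588.8 and 494.9 in the wild-type. Here complemented and wild-type arrays overlapped and *oxt6* stood apart by 1.35 ± 0.18 from the wild-type (adjusted p = 0.000121) and by 1.35 ± 0.17 from complemented plants (adjusted p = 1.15e-05), both calls holding in every alternative run. The alternatives are refits of the same arrays. By the study's RNA blot WCRKC1 (AT5G06690) was nearly equal in the wild-type and the mutant, unlike on the arrays. For AT3G25580 the study's blot and the arrays had the same direction.

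ACHT2, an atypical Cys- and His-rich thioredoxin of the chloroplast, ran the other way. It read 233.2, 247.2 and 220.3 in *oxt6*, 376.0, 508.3, 315.7 and 347.2 in complemented plants, and 376.2, 401.4 and 366.3 in the wild-type. All 3 *oxt6* arrays were below the other 7, with a log2 difference of -0.71 ± 0.19 from the wild-type (adjusted p = 0.013) and -0.70 ± 0.18 from complemented plants (adjusted p = 0.00291). Without *oxt6* replicate 3 the first of these had adjusted p = 0.0519, the highest of its alternatives, which began at 8.41e-05, and the other did not pass with the 3′/5′ signal as a covariate (-0.74). ACHT4, which is known to act on starch synthesis through ADP-glucose pyrophosphorylase, read 371.7, 187.4 and 208.5 in *oxt6*, 795.3, 840.9, 1305.1 and 1314.3 in complemented plants, and 216.8, 226.7 and 225.6 in the wild-type. It separated the complemented plants only, with *oxt6* lower than complemented by -2.08 ± 0.25 on the log2 scale (adjusted p = 1.03e-05) and complemented higher than wild-type by 2.21 ± 0.25 (adjusted p = 6.29e-06), and neither call held with the 3′/5′ signal as a covariate (-0.89 and 1.05). ACHT1 and ACHT5 passed in no comparison, and ACHT1 varied most within *oxt6*, at 40.2, 111.2 and 96.7.

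The o-type thioredoxins of the mitochondrion were split. TO2 read 201.1, 344.1 and 313.9 in *oxt6*, 78.7, 88.4, 89.5 and 73.9 in complemented plants, and 105.9, 132.1 and 114.5 in the wild-type. Every *oxt6* array was above all others, by 1.25 ± 0.20 from the wild-type (adjusted p = 0.000518) and 1.75 ± 0.19 from complemented plants (adjusted p = 4.18e-06). TO2 was also lower in complemented plants than in the wild-type (-0.50, adjusted p = 0.0286), a call lost in 9 of 24 alternatives, 4 of them without a single array (wild-type replicate 2 or 3, line 5 replicate 1, line 6 replicate 2), with adjusted p from 0.0022 to 0.46. Its relative TO1 passed in no comparison, with intensities between 54.3 and 84.8.

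Proteins that join a thioredoxin domain to tetratricopeptide repeats gave another pattern. The probe sets of TDX, a redox-controlled chaperone with a thioredoxin domain, both separated the complemented plants. The first of them read 40.3, 35.1 and 24.7 in *oxt6*, 115.4, 134.1, 121.8 and 110.1 in complemented plants, and 26.9, 25.7 and 23.8 in the wild-type. All complemented arrays lay far above the rest, and TDX was lower in *oxt6* than in complemented plants by -1.84 ± 0.18 on the log2 scale (adjusted p = 2.31e-06) and higher in complemented than wild-type plants by 2.19 ± 0.18 (adjusted p = 7.67e-07). The other probe set of the gene gave -1.49 and 1.02 in these comparisons, so that 2 measures of 1 gene had the same direction. The first probe set averaged 33.4 in *oxt6*, 25.5 in the wild-type and 120 in complemented plants. Only the complemented arrays brought it past the brightness filter, so its direction adds no independent support. TTL4 was higher in *oxt6* than in complemented plants (0.87), and TTL3, which takes part in brassinosteroid signalling, was higher than in the wild-type in *oxt6* (0.72) and in complemented plants (0.78). The phosducin-like proteins PLP3b and AT5G14240 were lower in *oxt6* than in complemented plants (-0.47 and -1.44), TXND9 passed in no comparison, and the monothiol glutaredoxin GRXS17, which carries a thioredoxin domain, was lower in *oxt6* than in complemented plants (-0.71).

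Both type II peroxiredoxin probe sets, which stand for peroxide-removing targets of cytosolic thioredoxins, rose in *oxt6* relative to the wild-type, as did 16.5% of all probe sets. TPX1 read 1219.3, 1012.3 and 981.1 in *oxt6*, 1506.7, 1709.2, 1710.6 and 1681.0 in complemented plants, and 755.3, 773.1 and 551.5 in the wild-type. *oxt6* lay between the others, above the wild-type by 0.64 ± 0.18 (adjusted p = 0.0178) and lower than complemented plants by -0.63 ± 0.17 on the log2 scale (adjusted p = 0.00446). TPX1 did not pass against the wild-type with quantile normalization, nor against complemented plants after scaling to a common median. The probe set of TPX2 and AT1G60740 read 66.0, 137.1 and 135.0 in *oxt6*, 34.5, 28.2, 92.9 and 66.5 in complemented plants, and 48.7, 48.4 and 44.3 in the wild-type. Its *oxt6* arrays were above the wild-type ones but overlapped those of line 6. The rise of TPX2/AT1G60740 over the wild-type, 1.17 ± 0.39 (adjusted p = 0.0384), was lost without any wild-type array or without *oxt6* replicate 2 or 3 (adjusted p up to 0.128), with adjusted p from 0.000213 to 0.158 over its alternatives. Against complemented plants it was 1.09 ± 0.36 higher (adjusted p = 0.016), which was lost without *oxt6* replicate 2 or 3 (adjusted p up to 0.0712), within 0.000495 to 0.983 over its alternatives, and it was 0.03 with the 3′/5′ signal as a covariate. TPX2 and TPX1 are neighbours on chromosome 1, the only members that adjoin each other.

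The remaining members carry a thioredoxin fold but belong to none of these classes. Of the 16 compared, 9 passed above the wild-type in *oxt6* and none below it, beside 16.5% and 12.4% of all probe sets, with a median log2 difference of 0.62. AT4G10000, AT1G76020 and AT4G03200 had all *oxt6* arrays below the wild-type ones (-0.57, -0.43 and -0.22), without passing. AT3G25580 read 97.3, 162.4 and 153.4 in *oxt6*, 50.9, 67.7, 51.0 and 58.4 in complemented plants, and 42.3, 20.6 and 28.5 in the wild-type. It had the largest rise over the wild-type of all 55 members, 2.16 ± 0.26 (adjusted p = 6.25e-05), and was 1.23 ± 0.24 above complemented plants (adjusted p = 0.000529), a difference that was 0.27 and did not pass with the 3′/5′ signal as a covariate. Its means were 138 in *oxt6*, 57.0 in complemented plants and 30.5 in the wild-type, beside 51.4 for the dimmest member compared. The brightness filter thus admitted AT3G25580 largely through *oxt6*. Without that filter it still passed against the wild-type in limma (2.16, adjusted p = 3.69e-05). AT4G08280 read 500.4, 833.0 and 823.4 in *oxt6*, 284.2, 299.3, 251.1 and 241.1 in complemented plants, and 241.5, 268.3 and 192.1 in the wild-type. Its *oxt6* arrays stood clear of the other 7, which overlapped, by 1.59 ± 0.22 from the wild-type (adjusted p = 0.000156) and 1.38 ± 0.21 from complemented plants (adjusted p = 5.25e-05). With the 3′/5′ signal as a covariate AT4G08280 was 0.57 above complemented plants and did not pass.

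Another pair of these genes was highest in *oxt6* and lowest in complemented plants. AT3G04780 read 580.0, 839.5 and 763.1 in *oxt6*, 142.3, 138.5, 116.8 and 114.7 in complemented plants, and 311.9, 284.6 and 304.8 in the wild-type. AT5G06430 read 228.8, 277.6 and 283.5 in *oxt6*, 62.6, 57.7, 65.2 and 61.1 in complemented plants, and 121.0, 146.8 and 123.4 in the wild-type. In both, the 3 groups did not overlap. AT3G04780 was 1.26 ± 0.18 above the wild-type (adjusted p = 0.000217) and 2.49 ± 0.17 above complemented plants (adjusted p = 1.38e-07), and AT5G06430 was 1.01 ± 0.16 above the wild-type (adjusted p = 0.000353) and 2.07 ± 0.15 above complemented plants (adjusted p = 1.69e-07). These 4 calls of *oxt6* held in every alternative.

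A dimmer pair of the same kind did not pass between complemented and wild-type plants. AT5G57230 read 98.0, 185.5 and 181.9 in *oxt6*, 79.0, 85.0, 81.0 and 77.9 in complemented plants, and 75.4, 74.6 and 73.0 in the wild-type. *oxt6* replicate 1 was close to the other groups while replicates 2 and 3 were about equal and far above, giving 0.99 ± 0.21 from the wild-type (adjusted p = 0.00363) and 0.88 ± 0.20 from complemented plants (adjusted p = 0.0015), and the difference from complemented plants turned to -0.22 with the 3′/5′ signal as a covariate. AT5G50100 read 87.7, 99.9 and 84.6 in *oxt6*, 55.8, 63.3, 69.8 and 63.3 in complemented plants, and 58.6, 56.6 and 72.3 in the wild-type. Its rise over the wild-type, 0.54 ± 0.16 (adjusted p = 0.0264), was lost without wild-type replicate 1 (adjusted p = 0.0887) or 2 (adjusted p = 0.0943) or *oxt6* replicate 2 (adjusted p = 0.0649), and adjusted p ran from 0.000754 to 0.0943 over its alternatives. Against complemented plants AT5G50100 was 0.52 ± 0.15 higher (adjusted p = 0.00824), and 0.38 without passing when the 3′/5′ signal was a covariate.

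DGAT3, a diacylglycerol acyltransferase whose sequence is annotated with a thioredoxin-like fold, had the widest range among complemented and wild-type plants. It read 1415.2, 734.4 and 607.3 in *oxt6*, 2764.7, 2817.5, 2992.5 and 2932.3 in complemented plants, and 411.4, 548.4 and 307.2 in the wild-type. The 3 groups did not overlap, with *oxt6* in between, 1.06 ± 0.28 above the wild-type (adjusted p = 0.0131) and lower than complemented plants by -1.74 ± 0.27 on the log2 scale (adjusted p = 6.35e-05), which was -0.28 and did not pass with the 3′/5′ signal as a covariate. Complemented plants exceeded the wild-type by 2.80 ± 0.27 (adjusted p = 1.56e-06), a call that held in every alternative. The rise of DGAT3 in *oxt6* over the wild-type had adjusted p = 0.0606 without wild-type replicate 3, within a range of 0.000339 to 0.282 over its alternatives. AT1G07700 and AT5G11640 were higher than the wild-type in *oxt6* (1.51 and 0.69) and in complemented plants (1.38 and 0.50), with no difference passing between those 2 groups.

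Counted together, 13 of the 55 (23.6%) exceeded both other groups in *oxt6*, beside 9.42% of all probe sets, and 3 (5.45%) were lower than both, beside 5.24%. Of the 13, 8 were higher at 2-fold or more in both comparisons (14.5%, beside 4.19% of all probe sets). AT3G25580, among both the 13 and the 8, passed the brightness filter largely through *oxt6*. Without that filter 12 of the 13 remained, beside 4.87% of all probe sets, and AT5G50100 was lost. The 13 were spread over 6 classes, with 6 of the other thioredoxin-fold proteins, 2 h-type and 2 WCRKC. Reductases, o-type thioredoxins and type II peroxiredoxins had 1 each. All 3 that were lower in this fit are plastid proteins, but that count was unstable. It was 6 with quantile normalization, 9 with array weights, 7 without *oxt6* replicate 1 and 1 at an adjusted p under 0.01. With quantile normalization TRX2 (cytosol or membranes) and AT1G76020 (compartment not assigned) were also lower than both, so not all were plastid proteins. No difference of complemented plants from the wild-type passed at 5 of the 13 (4.37% of all probe sets had this pattern), namely WCRKC1, AT4G08280, AT5G57230, AT5G50100 and TPX2/AT1G60740. They were lower than the wild-type at another 5 (ATTRX4, TRX1, TO2, AT3G04780 and AT5G06430) and higher, though below *oxt6*, at 3 (WCRKC2, AT3G25580 and AT2G04700). Of these calls between complemented and wild-type plants, TRX1, AT3G04780 and TO2 did not pass with the 3′/5′ signal as a covariate (-0.55, -0.62 and 0.30). With the 3′/5′ signal as a covariate 6 of the 13 remained, ATTRX4, TRX1, TO2, AT3G04780, AT5G06430 and WCRKC1. In that fit, which leans on *oxt6* replicate 1, 4.42% of all probe sets were higher than both. TPX1 and DGAT3, 2 members, were above the wild-type and below complemented plants (3.64%, beside 6.23%), and 5 passed in no comparison (ACHT1, ACHT5, AT4G10000, TXND9 and TO1).

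**Figure D3:**
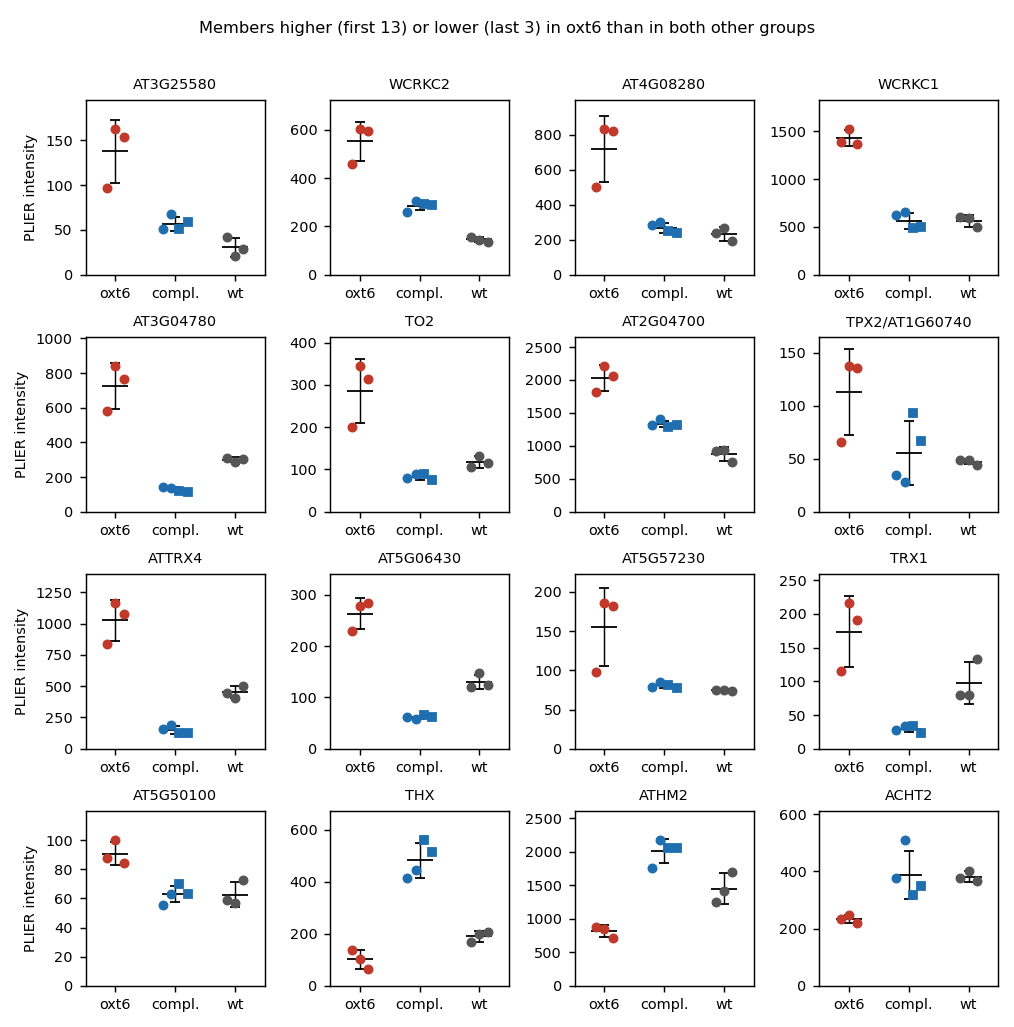
PLIER intensity (y axis, from 0) on each array of the 13 probe sets that were higher and the 3 that were lower (THX, ATHM2 and ACHT2) in *oxt6* than in both complemented (compl.) and wild-type (wt) plants. Circles and squares among complemented plants are lines 5 and 6, and the bar and whiskers are the mean and SD. *oxt6* replicate 1, the leftmost red point, was the lowest *oxt6* array in 11 of the 13 rises. No matching count was made over all probe sets, of which 82.6% had replicate 1 above or below both other *oxt6* arrays. The 11 are thus not shown to be particular to these members.

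Seen by compartment, 3 of the 20 plastid probe sets compared rose and 3 fell in *oxt6* against the wild-type, close to the 16.5% and 12.4% of all probe sets. Against complemented plants 7 of the 20 rose and 9 fell (beside 32.8% and 37.6%), and 12 were higher and 3 lower in complemented plants against the wild-type (beside 38.7% and 34.1%). Of the 10 cytosolic ones outside the h-type class, 3 rose and none fell in *oxt6* against the wild-type (beside 16.5% and 12.4%), and 2 were higher and 6 lower than in complemented plants (beside 32.8% and 37.6%). No member of the block is annotated as a protein disulfide isomerase. The most frequent pattern was a level set apart only in the complemented plants. This held for 17 members (30.9%, beside 26.3% of all probe sets), among them NTRC, NTRB/NTRA, TRXF2, THM1, TRX-M4, ATHM3, ACHT4 and both TDX probe sets, which were higher in complemented plants than in *oxt6* and the wild-type without passing between those. Of the 17, the first TDX probe set and AT3G27570 passed the brightness filter only through the complemented arrays. AT3G27570 averaged 44.0 in *oxt6*, 37.3 in the wild-type and 121 in complemented plants. Another 7 (FTRA2, TTL4, AT3G54290, TRXF1, TH9, TY1 and TRX5) were lower in complemented plants in the same way (12.7%, beside 18.7%). The 3′/5′ signal set the same arrays apart, and lay at -0.05 to 0.10 on the complemented arrays and at 1.09 to 2.88 on the others.

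Known targets of plastid thioredoxins were taken from lists of pathway genes, of which the probe annotation used here names only a part. All 5 of the 11 listed plastid enzymes that could be named were lower in *oxt6* than in complemented plants and higher in complemented plants than in the wild-type, and none of the 5 passed in *oxt6* against the wild-type. Over all probe sets 37.6% and 38.7% passed in these directions. The leaf marker LHCB4.1 moved the same way (-2.34 and 0.97) and was also lower in *oxt6* than the wild-type (-1.37), and the 3′/5′ signal set the complemented arrays apart too. They are PRK and SBPASE of the Calvin cycle, Rubisco activase (RCA), the γ subunit of the plastid ATP synthase (ATPC1) and NADP-malate dehydrogenase. Against complemented plants PRK was lower by -2.34 (adjusted p = 5.94e-06), SBPASE by -1.75 (adjusted p = 6.8e-05) and RCA by -2.60 (adjusted p = 0.00014) on the log2 scale. RCA also showed the spread within *oxt6* at its widest, at 3350.6, 711.7 and 630.9, against 6042.7 to 8232.2 in complemented plants and 1139.6 to 1569.0 in the wild-type. Of 5 peroxiredoxins that could be named of 8 listed peroxiredoxins and methionine sulfoxide reductases, all were lower in *oxt6* than in complemented plants. Against the wild-type PRXQ of the plastid was higher (0.82, adjusted p = 0.00552) and the mitochondrial PRXIIF lower (-1.08, adjusted p = 0.0046). The 2-Cys peroxiredoxins 2CPA and 2CPB went apart, at 0.42 (adjusted p = 0.0952) and -0.54 (adjusted p = 0.0861), and neither passed. PRXIIE, at -0.54, did not pass either (adjusted p = 0.163).

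The 3 *oxt6* arrays were not equally alike. Over the 55 members the median SD of log2 intensity was 0.22 in *oxt6*, 0.15 in complemented plants and 0.18 in the wild-type. Replicate 1 lay outside the other two *oxt6* arrays at 47 members (85.5%, beside 82.6% of all probe sets), and it was the *oxt6* array closest to the complemented mean at 37 (67.3%, beside 57.2%). The log2 difference of replicate 1 from the mean of replicates 2 and 3 was 1.08 for DGAT3, 0.91 for ACHT4 and 0.87 for TRX-M4, genes that were higher in complemented than in wild-type plants, and -1.10 for TY1 and -0.81 for TRX1, which were lower there. The largest of all, -1.35 for ACHT1, went the other way, as did -1.03 for TPX2/AT1G60740, -0.78 for GRXS17 and -0.69 for AT3G25580. Complemented plants differed from the wild-type by 0.28, 0.07, 0.70 and 0.93 at these. The 2 differences had the same sign at 36 of 55 members (65.5%, beside 66.8% of all probe sets). Their Pearson correlation was 0.60 across the 55 members and 0.53 across all 12453 probe sets. This is a description across genes, which are not independent replicates. The axes have no array in common, but the genes share libraries, and the 3′/5′ signal of replicate 1 (1.09) lay between those of the complemented and the other *oxt6* arrays. Without replicate 1 the members that changed against the wild-type numbered 31 and not 21. Those above both other groups numbered 17 and not 13, while the share of all probe sets above both was 12.9% and not 9.42%. The added 4 were TH9, TTL4, TY1 and ty2.

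**Figure D4:**
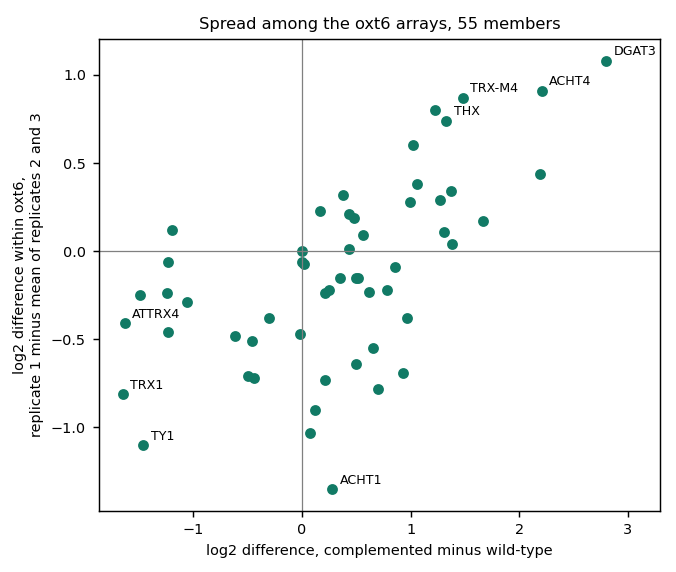
Log2 difference between complemented and wild-type plants (x axis) and, within *oxt6*, between replicate 1 and the mean of replicates 2 and 3 (y axis), with 1 point for each of the 55 members. The 2 axes share no array. Some members far to the right, such as DGAT3 (1.08), ACHT4 (0.91) and TRX-M4 (0.87), were higher in replicate 1. TRX1 (-0.81) and TY1 (-1.10), far to the left, were lower. ACHT1 (-1.35) and GRXS17 (-0.78) were lower in replicate 1 though right of 0. The sign was the same at 36 of 55 members (65.5%, beside 66.8% of all probe sets).

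The 2 complemented lines gave nearly the same levels. Between line 5 and line 6 the median absolute log2 difference was 0.16, and 3 of 55 members passed (beside 4.23% of all probe sets), TRXF1 and TRX5 higher in line 5 and TPX2/AT1G60740 lower.

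The last 4 members were too dim to be compared with the rest, with mean intensities of at most 46.5 where the lowest compared member averaged 51.4. AT5G45020 read 19.2 to 25.2 in *oxt6*, 57.2 to 78.1 in complemented plants and 16.4 to 23.3 in the wild-type. AT3G53220 read 43.8 to 89.3 in *oxt6*, 23.2 to 39.0 in complemented plants and 40.8 to 52.9 in the wild-type. Thus complemented plants stood above the others at AT5G45020 and below them at AT3G53220. PLP3a and AT1G50950 lay between 33.6 and 49.1 and between 29.3 and 67.7 on all arrays.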

How the data were processed

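RNA of the 10 leaf samples was hybridized to ATH1 arrays. The deposited intensities are linear, none is under 16.0, and the authors made them in ArrayAssist by the PLIER protocol (version not given in the sources used here). After 64 control probe sets were dropped, log2 was taken with an offset of 1. The 12453 probe sets of highest mean entered limma 3.58.1 under R 4.3.3, with 1 mean per group, a trended variance, no replicate block and Benjamini-Hochberg adjustment at 0.05. Arrays were grouped by their labels, lines 5 and 6 together as complemented plants. The number of arrays limits the precision. The members, classes and gene lists were chosen with earlier results of these data known. Values of every array are given for members that passed the same way against both groups, for reductases and for the 3 largest called changes per direction and comparison, with TPX1 and the dim members added after their values were seen, and pathway genes are named where called. Markers of root, flower and seed were chosen after the data were seen. RefSeq (TAIR10.1) gave names and neighbours only. The fit was tested on simulated data. Alternatives were 2 scalings, another offset, other filters, fits on the groups compared, a replicate block, array weights, the methods' t-test, a stricter threshold, the 3′/5′ signal as a covariate, each line alone and each array left out. Detection calls and sequences were not used here. Python 3.11.15 and matplotlib 3.10.9 served for tables and figures.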

Additional observations from a re-analysis of the deposited data

Results flagged for a closer look

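Among complemented plants, TPX1 had 1 array set apart. Line 5 replicate 1 read 1506.7 against 1681.0 to 1710.6 on the other 3, and its gap to the nearest was 0.855 of the whole range. Chance flags about 1 group in 20.

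The difference of *oxt6* from complemented plants depended on the line at 3 members, tested as line 5 against line 6 in limma over all probe sets. TRXF1 averaged 1563 in line 5 and 904 in line 6, a log2 difference of 0.78 (adjusted p = 0.0255, both arrays of line 5 above both of line 6). TRX5 averaged 2176 in line 5 and 1272 in line 6, also a log2 difference of 0.78 (adjusted p = 0.0236). TPX2/AT1G60740 averaged 31.4 in line 5 and 79.7 in line 6, a log2 difference of -1.31 (adjusted p = 0.0415). Each line has 2 arrays.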

How the results depend on the processing

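The counts were recomputed under 24 alternatives, and those of *oxt6* against the wild-type under 22, without the fits of a single complemented line. The 21 members changed in *oxt6* against the wild-type numbered 37 with array weights, 12 at an adjusted p under 0.01, and 8 after Benjamini-Hochberg adjustment or 9 at an unadjusted p under 0.01 with the methods' t-test. The 13 that were higher than both other groups (9.42% of all probe sets were) numbered 20, 10, 6 and 7 under these settings. Beside them, 16.7%, 6.35%, 3.92% and 4.67% of all probe sets were higher than both. With the 3′/5′ signal as a covariate, 18 of 45 changed against complemented plants, 18 of 41 between complemented and wild-type plants, and 6 in place of 13 were higher than both. In that fit AT5G57230 turned to -0.22 against complemented plants and TO2 to 0.30 in complemented against wild-type plants. The cause was not tested. That fit leans on *oxt6* replicate 1, so the calls it loses are not shown to be absent. Leaving out each array gave 17 to 31 changed members against the wild-type, 41 to 45 against complemented plants and 32 to 43 between complemented and wild-type plants. It gave 10 to 17 higher than both, beside 6.91% to 12.9% of all probe sets. With replicate number as a block the counts were 20, 43, 36 and 12. Same-numbered *oxt6* and wild-type arrays did not deviate together (correlations 0.102, -0.214 and 0.124), so these arrays gave no sign of pairing by number. So few arrays cannot exclude a shared batch, and complemented arrays were not examined in this way. Of 58 called differences of the 24 members with full values named by rule, 23 held in every alternative, and of 1349 recomputed differences 1248 kept direction and call, 99 lost the call and 2 turned. Values near the floor of 16.0 and 3 or 4 arrays a group limit the precision.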
